A study of Mus musculus with 6 samples.

Results

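The genes described here are those that build cholesterol and long-chain fatty acids, together with their main regulators and a few proteins that carry or bind sterols. They were chosen by symbol, from a list of 31 symbols of known function, in mouse thymoma RNA-seq tables of 25001 loci. A row was found for 28 of the 31, each symbol once. Mvd, Fdps and Tm7sf2 were not analysed here. The 28 genes comprise 15 sterol enzymes (5 of the mevalonate pathway and 10 from squalene to cholesterol), 5 sterol regulators and carriers, and 8 genes of fatty acid synthesis and desaturation. All but Scd1, that is 27 genes, reached 1 FPKM somewhere among the libraries. FPKM gives the fragments of a gene relative to its exon length and to the size of the library, so that levels can be compared between genes.

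The study sequenced poly(A) RNA of the 427.1.86 thymoma cell line, called 427 cells here, in 6 libraries, 1 per condition. It addressed the gene expression that follows shedding of epithin/PRSS14 (gene symbol St14), a membrane serine protease, and release of its intracellular domain (EICD). In the first pair of libraries, 427 cells that stably carried the empty pSUPER vector were given DMSO, the solvent, or 1 µM phorbol 12-myristate 13-acetate (PMA), an activator of protein kinase C that triggers shedding, for 2 h, having been kept without serum for 2 h. In the second pair, cells labelled as a knockdown of SPPL2b, the intramembrane protease that releases EICD, received the same agents on the same schedule (KD-labelled cells). The third pair was KD-labelled cells transfected with GFP vector alone or with GFP vector plus Flag-tagged EICD (Flag-N55) and sorted for GFP. All 6 libraries came from the same parental line grown in DMEM with 10% FBS. The labels name an siRNA against SPPL2b, whereas the study's methods describe an shRNA stably expressed from pSUPER in single-cell clones that were screened by qPCR of SPPL2b mRNA, so that the KD-labelled cells may differ from 427 cells in more than the targeted gene. Serum deprivation is not given for the transfected cells. Because there was 1 library per condition, no difference had a replicate check and no test between conditions was possible.

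Cholesterol is made from acetyl-CoA through mevalonate, the isoprenoids, squalene and lanosterol, and fatty acids from acetyl-CoA through malonyl-CoA. Many of these genes are known targets of SREBP transcription factors, membrane-bound precursors that are cleaved and enter the nucleus when sterols in the endoplasmic reticulum are low. SREBP2 acts mainly on sterol genes and SREBP1 mainly on fatty acid genes, and INSIG proteins hold the precursors back when sterols are plentiful.

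Sppl2b, the targeted gene, was not lower in the libraries labelled knockdown. It had 9.90 and 6.86 FPKM in the DMSO and PMA libraries of 427 cells, 13.4 and 9.37 in KD-labelled cells with DMSO and PMA, 11.4 with GFP and 13.2 with GFP plus EICD. The log2 fold change of KD-labelled over 427 cells was 0.44 with DMSO and 0.45 with PMA, against the direction of the label, and "KD-labelled" states the label only. St14 was at 69.6 to 105 FPKM in the 5 libraries without EICD and at 615 with it. The estimated depth was 25400000 to 29900000 fragments, 10555 to 10873 loci reached 1 FPKM, and the 10 highest loci held 85.6 to 94.2% of the FPKM sum. Of the markers checked, the epithelial genes were abundant (Krt5 at 3851 to 10705 FPKM and Krt14 at 1355 to 3820), the 6 T cell markers summed to at most 0.34 FPKM in any library with Cd3e and Cd4 listed at 0, the 3 endothelial markers to at most 0.28, and the 4 macrophage markers to 4.45 to 8.66, mainly Csf1r and Cd68. In bulk RNA, fewer cells of a type and less RNA per cell cannot be told apart.

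The genes were well expressed, and as a group their level was highest in KD-labelled cells with DMSO. The summed level of the 15 sterol enzymes was 795.4 FPKM in 427 cells with DMSO and 488.9 with PMA, 1351 in KD-labelled cells with DMSO and 912.4 with PMA, 806.6 with GFP vector and 558.5 with EICD added. The 8 fatty acid genes summed to 850.4, 536.3, 1369, 967.1, 1159 and 903.5 FPKM in the same order of libraries. Each summed level was thus lower in the second library of its pair. Scd2 made up most of the fatty acid decrease with PMA, from 287 to 75.01 FPKM in 427 cells and from 572 to 278 in KD-labelled cells. With PMA in 427 cells Acly, Fasn and Acaca were nearly level (-0.10, -0.07 and -0.05 on the log2 scale). The sum of the fatty acid genes was higher in the GFP library than in 427 cells with DMSO mainly through Scd2 and Fads2, as Acly and Fasn were lower there and the median gene was at 101 and 97.2 FPKM. Among single genes, the mean over the 6 libraries was highest for Scd2 (336 FPKM), Fads2 (231) and Acly (153), and lowest for Scd1 (0.599), Pmvk (14.6) and Elovl6 (17.1). All 15 sterol enzymes had their highest value in the KD-labelled DMSO library, as did 25.4% of the 11580 loci with 1 FPKM or more in any library. The number was 13 or 14 of 15 when the libraries were rescaled. For 12 of 15 the lowest value was in 427 cells with PMA, where 28.3% of loci had theirs, and for Ebp, Sc5d and Dhcr7 it was in the GFP plus EICD library (18.8% of loci). Of the 7 fatty acid genes that reached 1 FPKM, 3 were highest in the KD-labelled DMSO library and 5 lowest in 427 cells with PMA.

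**Figure D1:**
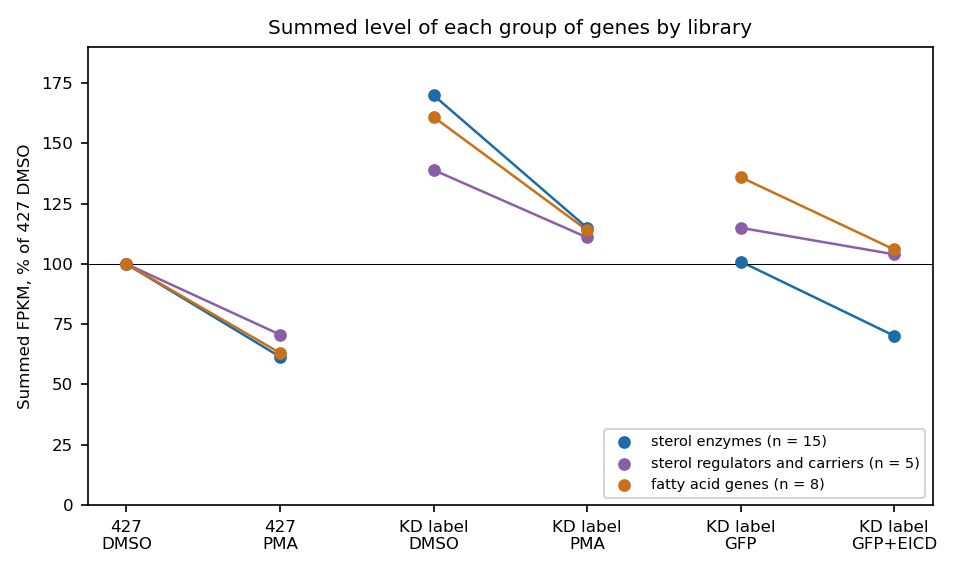
Summed FPKM of each group of genes in each library, as a percentage of the sum in 427 cells with DMSO (vertical axis, from 0). Points are single libraries, and lines join the members of a pair. The sterol enzymes stand at 61.5% in 427 cells with PMA, 170% in KD-labelled cells with DMSO, 101% with GFP alone and 70.2% with GFP plus EICD, and the fatty acid genes at 63.1%, 161%, 136% and 106%. In each pair Scd2 had the largest difference in FPKM of the fatty acid genes. By the median log2 fold change with PMA in 427 cells, the fatty acid genes differed less (-0.44) than the sterol enzymes (-0.78).

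Because many of these genes differed together between libraries, their promoters were read from RefSeq windows (assembly GRCm38.p6, the build of the expression tables, GRCm38), which run from 250 bases before to 50 after a transcription start. A window was found for 22 of the 28 genes, and not for Fdft1, Sqle, Stard4, Scd1, Scd2 or Fads1. That of Acaca lies 65766 bases from the 5′ end of the locus, that of Fads2 886 and that of Srebf2 693. Sequences searched, on either strand, were CCAAT, the core bound by NF-Y, TCACNCCAC, a sterol regulatory element as bound by SREBPs, CACGTG, an E-box, and TGANTCA, bound by AP-1. CCAAT was found in 11 of 13 sterol enzymes, 4 of 4 regulators and carriers and 2 of 5 fatty acid genes, and in 37.4% of all 32851 windows. Acaca and Fads2 were among the fatty acid genes without it. TCACNCCAC was found in 1 of 22, Hmgcs1, against 1.24% of all windows, CACGTG in 3 of 22 (Hsd17b7, Sc5d and Insig1) against 7.15%, and TGANTCA in 1 of 22 (Msmo1) against 7.81%. The following lines give the 250 bases upstream of the start for 4 sterol genes with large differences and for Fasn, a fatty acid gene with small ones. Capitals mark every match to a searched sequence, and CCAAT reads ATTGG where it lies on the other strand.
Hmgcs1, chr13:119690101-119690350, plus strand: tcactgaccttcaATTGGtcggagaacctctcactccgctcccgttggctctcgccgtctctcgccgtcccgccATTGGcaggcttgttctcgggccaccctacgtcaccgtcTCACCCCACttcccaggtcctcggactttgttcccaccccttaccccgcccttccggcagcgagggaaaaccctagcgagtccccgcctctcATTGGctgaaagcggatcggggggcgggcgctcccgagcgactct
Lss, chr10:76531355-76531604, plus strand: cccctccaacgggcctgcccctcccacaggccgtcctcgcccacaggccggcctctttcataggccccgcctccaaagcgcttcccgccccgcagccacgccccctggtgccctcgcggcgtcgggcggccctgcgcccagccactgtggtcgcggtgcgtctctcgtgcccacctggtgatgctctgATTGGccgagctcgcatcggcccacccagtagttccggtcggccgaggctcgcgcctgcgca
Insig1, chr5:28071162-28071411, plus strand: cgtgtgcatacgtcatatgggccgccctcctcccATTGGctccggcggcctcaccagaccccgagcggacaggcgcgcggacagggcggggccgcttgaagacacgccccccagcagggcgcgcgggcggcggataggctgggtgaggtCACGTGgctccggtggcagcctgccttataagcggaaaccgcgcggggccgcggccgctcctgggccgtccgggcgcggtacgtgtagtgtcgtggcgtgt
Idi1, chr13:8885356-8885605, plus strand: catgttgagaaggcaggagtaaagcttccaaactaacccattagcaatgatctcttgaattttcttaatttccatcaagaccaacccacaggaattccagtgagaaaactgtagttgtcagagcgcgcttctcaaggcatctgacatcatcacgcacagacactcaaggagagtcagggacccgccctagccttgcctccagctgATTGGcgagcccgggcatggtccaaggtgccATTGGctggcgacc
Fasn, chr11:120824548-120824797, minus strand: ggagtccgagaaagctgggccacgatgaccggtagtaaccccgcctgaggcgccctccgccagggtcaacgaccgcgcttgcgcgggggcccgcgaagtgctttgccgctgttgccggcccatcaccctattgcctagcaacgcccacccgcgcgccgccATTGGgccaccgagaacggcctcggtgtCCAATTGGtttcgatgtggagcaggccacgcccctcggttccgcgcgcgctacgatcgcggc
Hmgcs1 had CCAAT matches beginning at -237, -176 and -45 from the start, with the TCACNCCAC match, which reads TCACCCCAC, beginning at -137. Lss had 1 CCAAT match, at -62, Idi1 had matches at -45 and -14, and Insig1 had one at -216 and a CACGTG at -101. In Fasn the matches at -62 and -59 overlap, since CCAATTGG reads CCAAT on both strands, and a further one lies at -90. A match describes these letters only and is not evidence that a factor was bound.

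The mevalonate enzymes carry acetyl units to the isoprenoid building blocks. Hmgcs1 (chromosome 13, 119690375 to 119708086), which condenses acetyl-CoA with acetoacetyl-CoA to HMG-CoA, was at 104 FPKM in 427 cells with DMSO and 39.6 with PMA, 210.4 in KD-labelled cells with DMSO and 109 with PMA, 83.00 with GFP alone and 48.8 with GFP plus EICD. Its level in KD-labelled cells with DMSO was the highest of any sterol enzyme in any library, and within each pair it was lower in the second library. On the log2 scale Hmgcs1 differed by -1.39 with PMA in 427 cells, -0.95 with PMA in KD-labelled cells and -0.77 with EICD, and it was 1.01 higher in KD-labelled than in 427 cells with DMSO. Idi1, the isopentenyl-diphosphate isomerase, was at 59.8 and 36.04 FPKM in the DMSO and PMA libraries of 427 cells, 121 and 109.7 in those of KD-labelled cells, and 71.9 and 36.2 in the GFP and GFP plus EICD libraries. The PMA difference of Idi1 was -0.73 on the log2 scale in 427 cells and -0.14 in KD-labelled cells, so that the lines stood 1.02 apart with DMSO and 1.61 apart with PMA. With EICD, Idi1 had the largest decrease of the 27 genes, -0.99.

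Acat2, which forms acetoacetyl-CoA, was at 41.5 and 19.9 FPKM in the DMSO and PMA libraries of 427 cells, 77.4 and 45.1 in those of KD-labelled cells, and 54.5 and 34.3 in the GFP and GFP plus EICD libraries. Mvk, the mevalonate kinase, was at 27.9 FPKM in 427 cells with DMSO and 16.1 with PMA, 43.2 in KD-labelled cells with DMSO and 22.7 with PMA, 34.9 with GFP alone and 30.4 with GFP plus EICD. Pmvk, the next kinase, was at 12.9 and 7.83 FPKM in the DMSO and PMA libraries of 427 cells, 18.7 and 15.4 in those of KD-labelled cells, and 18.5 and 14.3 in the GFP and GFP plus EICD libraries. In each of these genes 427 cells with PMA were lowest and KD-labelled cells with DMSO highest, while the order of the libraries between them varied. Mvk was the only mevalonate enzyme with a larger decrease with PMA in KD-labelled cells (-0.93) than in 427 cells (-0.79), and its difference with EICD was small (-0.20). Pmvk had the fewest estimated fragments of the 27 genes, 147 in 427 cells with PMA, and its GFP value was within -0.02 of that in untransfected KD-labelled cells.

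From squalene onward, the largest difference in each comparison except that of EICD was at Lss (chromosome 10, 76531588 to 76557138), the cyclase that makes lanosterol. Lss was at 35.1 FPKM in 427 cells with DMSO and 11.7 with PMA, 81.2 in KD-labelled cells with DMSO and 41.05 with PMA, 38.2 with GFP alone and 27.7 with GFP plus EICD. The 427 PMA value was far below every other, and the KD-labelled DMSO value was far above. Its log2 fold change was -1.58 with PMA in 427 cells and -0.98 in KD-labelled cells, 1.21 and 1.81 between the lines with DMSO and with PMA, -1.09 with GFP and -0.46 with EICD. Fdft1, the squalene synthase, was at 22.1 and 11.4 FPKM in the DMSO and PMA libraries of 427 cells, 40.3 and 23.9 in those of KD-labelled cells, and 22.4 and 17.2 in the GFP and GFP plus EICD libraries. Sqle, the squalene epoxidase, was at 75.7 and 47.4 FPKM in the DMSO and PMA libraries of 427 cells, 116 and 80.5 in those of KD-labelled cells, and 82.6 and 66.2 in the GFP and GFP plus EICD libraries. Both repeated the order seen in Lss at its ends, but with smaller steps, -0.96 for Fdft1 and -0.68 for Sqle with PMA in 427 cells. In the annotation 18.3% of the exon bases of Fdft1 are shared with Ctsb on the opposite strand, and as the library kit did not mark strand, reads there cannot be assigned to either gene. Ctsb was at 37.2 to 47.8 FPKM in all 6 libraries. For the other genes the share of exon bases shared with another gene was at most 12.1%.

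Demethylation of lanosterol is begun by Cyp51, which was at 77.5 and 40.1 FPKM in the DMSO and PMA libraries of 427 cells, 156 and 107 in those of KD-labelled cells, and 80.1 and 50.9 in the GFP and GFP plus EICD libraries. Msmo1, the methylsterol monooxygenase, was at 96.3 FPKM in 427 cells with DMSO and 54.8 with PMA, 141 in KD-labelled cells with DMSO and 99.8 with PMA, 69.2 with GFP alone and 56.5 with GFP plus EICD. Both were at least 1.5-fold lower with PMA in 427 cells, by -0.95 and -0.81 on the log2 scale, and by -0.55 and -0.50 in KD-labelled cells. They were also among the genes with the lowest GFP values relative to untransfected KD-labelled cells, at -0.96 for Cyp51 and -1.03 for Msmo1. Nsdhl, which removes the carboxylated methyl group, was at 34.5 and 20.03 FPKM in the DMSO and PMA libraries of 427 cells, 59.1 and 36.9 in those of KD-labelled cells, and 40.1 and 26.1 in the GFP and GFP plus EICD libraries. Hsd17b7, the ketosteroid reductase of the same complex, was at 30.7 and 18.5 FPKM in the DMSO and PMA libraries of 427 cells, 58.6 and 41.7 in those of KD-labelled cells, and 36.5 and 21.7 in the GFP and GFP plus EICD libraries. With EICD both were more than 1.5-fold lower, at -0.62 and -0.75.

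The last steps behaved less uniformly. Dhcr7, which completes cholesterol from 7-dehydrocholesterol, was at 20.9 FPKM in 427 cells with DMSO and 26.6 with PMA, 33.6 in KD-labelled cells with DMSO and 31.4 with PMA, 22.3 with GFP alone and 13.4 with GFP plus EICD. It was the only one of the 27 genes with a higher value with PMA in 427 cells (0.35), as 37.6% of all loci had, while in KD-labelled cells it was -0.10, and with EICD it was lower by -0.73. Sc5d, the desaturase before it, was at 48.2 and 36.9 FPKM in the DMSO and PMA libraries of 427 cells, 68.2 and 52.3 in those of KD-labelled cells, and 41.9 and 34.2 in the GFP and GFP plus EICD libraries. Its PMA difference was -0.38 in both lines. Ebp, the sterol isomerase, ranged only from 80.4 FPKM with GFP plus EICD to 125 in KD-labelled cells with DMSO and passed 1.5-fold in no comparison.

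**Figure D2:**
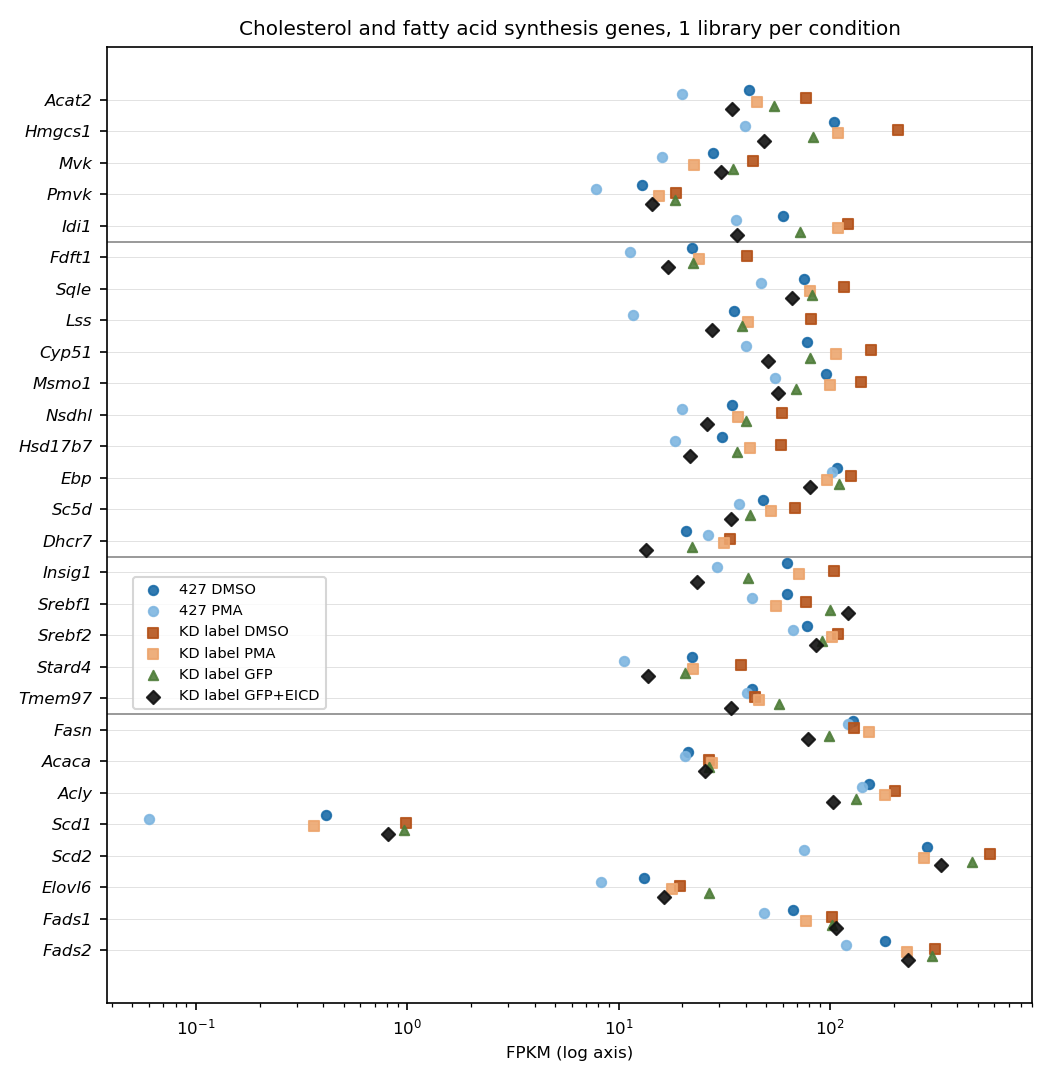
FPKM of each of the 28 genes (log axis) in the 6 libraries, 1 point per library, with gene groups divided by lines in the order mevalonate enzymes, squalene to cholesterol enzymes, regulators and carriers, and fatty acid genes. KD-labelled cells with DMSO (dark squares) are the rightmost point in all 15 sterol enzymes, and Scd1 lies below 1 FPKM in every library.

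Among the regulators and carriers, Insig1, the sterol-sensing anchor of the SREBP precursors and itself an SREBP target, was at 62.8 FPKM in 427 cells with DMSO and 29.3 with PMA, 105 in KD-labelled cells with DMSO and 71.3 with PMA, 40.7 with GFP alone and 23.4 with GFP plus EICD. It had the lowest GFP value relative to untransfected KD-labelled cells of all 27 genes, -1.37, and was -1.10 with PMA in 427 cells, -0.56 with PMA in KD-labelled cells and -0.80 with EICD. Stard4, a cytosolic sterol carrier, was at 22.3 and 10.6 FPKM in the DMSO and PMA libraries of 427 cells, 37.8 and 22.4 in those of KD-labelled cells, and 20.5 and 13.8 in the GFP and GFP plus EICD libraries. Its differences resembled those of the enzymes, -1.07 and -0.75 with PMA in the 2 lines and -0.57 with EICD. Tmem97, a membrane protein that binds sterols, was at 42.7 and 40.6 FPKM in the DMSO and PMA libraries of 427 cells, 44.1 and 46.2 in those of KD-labelled cells, and 57.5 and 34.05 in the GFP and GFP plus EICD libraries. It differed by 0.38 or less in 5 comparisons, and with EICD the difference was -0.75.

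The genes for the SREBP factors themselves differed less. Srebf2 was at 78.2 and 66.99 FPKM in the DMSO and PMA libraries of 427 cells, 109 and 102 in those of KD-labelled cells, and 91.8 and 85.5 in the GFP and GFP plus EICD libraries, and its only difference past 1.5-fold was between the lines with PMA (0.61). Srebf1 ranged from 42.6 FPKM in 427 cells with PMA to 122 with GFP plus EICD and passed 1.5-fold in no comparison. Unlike the sterol enzymes, Srebf1 was higher with GFP (0.36) and higher again with EICD (0.29). FPKM per gene does not separate the SREBP1 isoforms, and the amount of cleaved protein was not measured.

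Among the fatty acid genes that reached 1 FPKM, Scd2 had the largest difference with PMA in 427 cells, and Acly, Fasn and Acaca had the smallest. Scd2, a stearoyl-CoA desaturase (chromosome 19, 44293676 to 44308081), was at 287 FPKM in 427 cells with DMSO and 75.01 with PMA, 572 in KD-labelled cells with DMSO and 278 with PMA, 468 with GFP alone and 337 with GFP plus EICD. It had the largest decrease with PMA of the 27 genes in both lines, -1.93 and -1.04, and stood 1.00 higher in KD-labelled than in 427 cells with DMSO and 1.89 higher with PMA. Scd1, its close paralogue, was at 0.410 and 0.0600 FPKM in 427 cells with DMSO and PMA, 0.981 and 0.362 in KD-labelled cells, and 0.969 and 0.811 in the transfected cells. These values rest on an estimated 8.32 to 123 fragments, and how reads matching both genes were assigned is not given in the sources used here, so that no fold change is drawn from Scd1. Fads2, the delta-6 desaturase, was at 182 and 119 FPKM in the DMSO and PMA libraries of 427 cells, 315 and 230.3 in those of KD-labelled cells, and 303 and 234 in the GFP and GFP plus EICD libraries. Fads1, the delta-5 desaturase, was at 66.5 and 48.97 FPKM in the DMSO and PMA libraries of 427 cells, 102 and 76.8 in those of KD-labelled cells, and 102 and 107 in the GFP and GFP plus EICD libraries. Both were lowest in 427 cells with PMA, and they were at about the same level with GFP as in untransfected KD-labelled cells (-0.06 and 0.00).

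Acly, which makes cytosolic acetyl-CoA from citrate and so feeds both pathways, was at 153 FPKM in 427 cells with DMSO and 142 with PMA, 203 in KD-labelled cells with DMSO and 182 with PMA, 132 with GFP alone and 104 with GFP plus EICD. It was nearly level with PMA (-0.10 and -0.15) and lower with GFP (-0.62). Fasn, the fatty acid synthase, ranged from 78.5 FPKM with GFP plus EICD to 153 in KD-labelled cells with PMA, and Acaca, the acetyl-CoA carboxylase that makes malonyl-CoA, from 20.6 in 427 cells with PMA to 27.6 in KD-labelled cells with PMA. Neither passed 1.5-fold in any comparison, and their PMA differences in 427 cells were -0.07 and -0.05. Elovl6, the elongase of palmitate, was at 13.2 and 8.25 FPKM in the DMSO and PMA libraries of 427 cells, 19.6 and 17.98 in those of KD-labelled cells, and 26.9 and 16.4 in the GFP and GFP plus EICD libraries. It was -0.68 with PMA in 427 cells and -0.13 in KD-labelled cells, higher with GFP (0.45) and lower with EICD (-0.71). The last comparisons share the GFP library, where Elovl6 was highest.

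With PMA in 427 cells, the sterol enzymes as a group were lower. Of the 15, 12 were more than 1.5-fold lower and 3 (Acat2, Hmgcs1 and Lss) more than 2-fold lower, where 14.8% of 10981 loci were more than 1.5-fold and 5.0% more than 2-fold lower. Their median log2 fold change was -0.78, compared with -0.56 for the 5 regulators and carriers, -0.44 for the 7 fatty acid genes and -0.12 for all loci. Over all 27 genes, 17 were more than 1.5-fold lower, 6 of them more than 2-fold, and 0 were more than 1.5-fold higher, where 8.8% of loci were. Among the fatty acid genes the 3 past 1.5-fold were Scd2, Elovl6 and Fads2. Moving with PMA, 4 of 6 epithelial markers were more than 1.5-fold higher in 427 cells, with a list median of 0.79. Of 7 genes on an integrated stress response list, only Atf3 (1.85) was more than 1.5-fold higher. The median of that list was 0.00, and 3 of its genes were on the lower side. The summed level of the epithelial markers, most of it Krt5 and Krt14, was 8615 FPKM with DMSO and 8591 with PMA. The part of these genes in the result was not tested.

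In KD-labelled cells, whose Sppl2b level was not below that of 427 cells, most sterol enzymes were again lower with PMA and by less than in 427 cells. Mvk and Ebp had larger decreases than in 427 cells, Sc5d an equal one, and Dhcr7, which was higher with PMA in 427 cells, was on the lower side. Here 6 of 15 sterol enzymes (Acat2, Hmgcs1, Mvk, Fdft1, Lss and Nsdhl) were more than 1.5-fold lower and 0 more than 2-fold, against 17.3% and 6.4% of 10987 loci. Over all 27 genes, 8 were more than 1.5-fold lower, and Scd2 alone was more than 2-fold lower, with 0 genes so when the libraries were scaled by the upper quartile or the median ratio. The medians were -0.53 for sterol enzymes, -0.48 for regulators and carriers and -0.15 for fatty acid genes, the last equal to that of all loci. All 8 were also more than 1.5-fold lower in 427 cells. Thus 8 of the 27 genes were so in both lines, against 10.6% of 11281 loci. Here 3 of 6 epithelial markers were more than 1.5-fold higher, against 8.23% of loci, with a median of 0.50. Atf3 differed by 0.42, where the integrated stress response list had a median of -0.07. The part of these genes in the result was again not tested.

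The size of the PMA difference can be set side by side between the lines, which share no library. It was higher, mostly a smaller decrease, in KD-labelled cells for 23 of 27 genes, including 12 of 15 sterol enzymes and 6 of 7 fatty acid genes, where 49.8% of 11281 loci were higher. The median difference, KD-labelled minus 427, was 0.24 on the log2 scale for the sterol enzymes, 0.15 for the fatty acid genes and 0.00 for all loci. It exceeded 1.5-fold for 3 genes, Idi1, Lss and Scd2, and 4.38% of loci. Across the 27 genes the PMA differences of the lines correlated at 0.84 (Pearson) and 0.89 (Spearman), and across 9949 loci with 1 FPKM or more in all libraries at 0.77 and 0.75. These describe genes, which are not independent replicates. Each difference subtracts the DMSO library of its line, and in KD-labelled cells that library held the highest values of most of these genes.

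**Figure D3:**
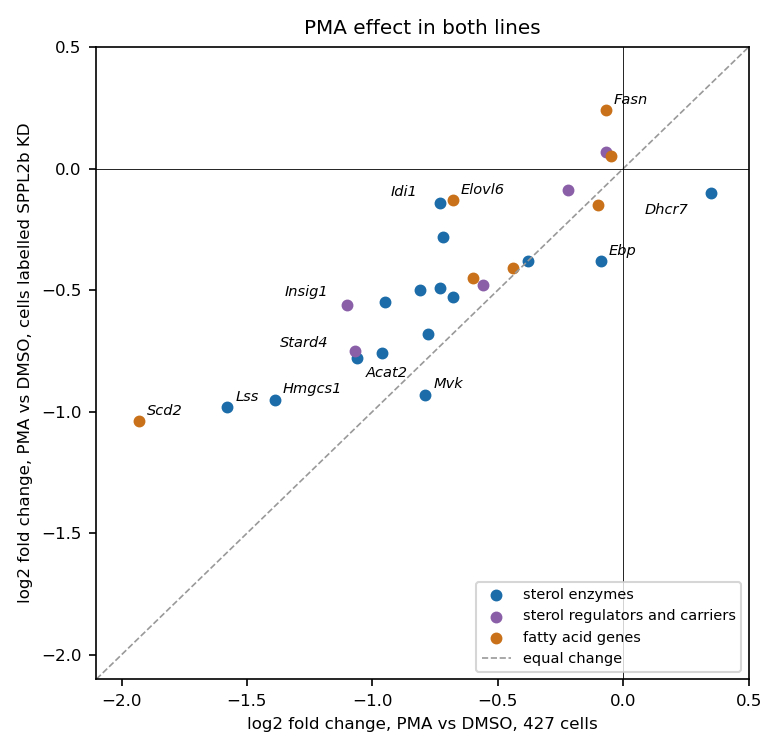
Log2 fold change with PMA in 427 cells (horizontal) and in cells labelled SPPL2b KD (vertical) for the 27 genes, 1 point per gene, coloured by group, with the line of equal change dashed. Scd2 lies at -1.93 and -1.04 and Lss at -1.58 and -0.98, and 23 of the 27 points lie above the dashed line.

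Between the lines, the KD-labelled cells had higher levels of these genes under both treatments, except for Ebp with PMA (-0.08). Sppl2b itself was not lower in them. With DMSO, 11 of 15 sterol enzymes were higher by over 1.5-fold and 4 (Hmgcs1, Idi1, Lss and Cyp51) by over 2-fold, against 9.31% and 3.92% of 11078 loci. With the upper quartile or the median ratio as the scale, only 1 of the 27 genes was more than 2-fold higher with DMSO, in place of 4. The medians were 0.78 for the sterol enzymes, 0.47 for regulators and carriers, 0.57 for fatty acid genes and 0.05 for all loci, and all 27 genes were on the higher side, with 56.0% of loci. With PMA, again 11 of 15 sterol enzymes were higher by over 1.5-fold and 7 by over 2-fold, against 6.73% and 2.56% of 10840 loci, with medians of 0.98, 0.61 and 0.65 for the groups and 0.02 for all loci. Of the 27 genes, 14 were higher by over 1.5-fold under both treatments, 9 of them sterol enzymes, as were 4.55% of 11281 loci. Scaling each library to the same FPKM sum, most of which lies in 10 loci, would shift every locus by 0.97 with DMSO and 1.25 with PMA toward the KD-labelled cells. Moving with this comparison, the epithelial keratin Krt8 was at 80.1 FPKM in 427 cells with DMSO and 311 in KD-labelled cells with DMSO, while the 6 epithelial markers together summed to 8615 and 6781 FPKM. The fibroblast markers summed to 0.75 and 2.02 FPKM, and the part of cell composition in the result was not tested.

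The GFP library can be set against untransfected KD-labelled cells with DMSO, but the pair differ in transfection, sorting and, by the labels, DMSO. Serum deprivation is not given for the GFP library and may differ too. These cannot be told apart. The sterol enzymes were lower in the GFP library. Of 15, 9 were more than 1.5-fold lower and 3 (Hmgcs1, Lss and Msmo1) more than 2-fold, against 13.3% and 5.14% of 11066 loci. Their median was -0.68, while that of the 7 fatty acid genes was -0.06, close to -0.08 for all loci, and became 0.01 when scaled by the upper quartile and 0.03 by the median ratio. Among the fatty acid genes only Acly was more than 1.5-fold lower. The fatty acid genes thus showed no shared direction here, with 3 of 7 on the higher side. Moving with this comparison, the 6 interferon-stimulated genes summed to 2.39 FPKM with DMSO and 5.36 with GFP. Atf3 was at 4.63 FPKM with DMSO and 33.0 with GFP (2.83), where the integrated stress response list had a median of 0.16. The 6 epithelial markers summed to 6781 and 15017, through Krt5 (1.33) and Krt14 (1.10), while Krt8 (-1.12), Krt18 (-0.86) and Epcam (-0.45) were lower and the list median was -0.19. The fibroblast markers summed to 2.02 and 0.34 FPKM and the macrophage markers to 7.48 and 4.45, with Csf1r at -1.31, and the part of all these genes in the result was not tested. This comparison, the PMA comparison in KD-labelled cells and the comparison of lines with DMSO all use the KD-labelled DMSO library, where most of the genes were highest.

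With EICD, whose library shows its construct as St14, the comparison was between 2 transfected and sorted libraries. It shares the GFP library with the comparison above, so that a high GFP value raises that difference and lowers this one. Tmem97 and Elovl6 had their highest value in the GFP library. All 15 sterol enzymes were on the lower side, with 41.9% of loci. Of these, 7 (Acat2, Hmgcs1, Idi1, Cyp51, Nsdhl, Hsd17b7 and Dhcr7) were more than 1.5-fold lower, against 3.11% of 11000 loci, and 0 more than 2-fold, against 0.836%, while scaling by the upper quartile or the median ratio put 1 of the 27 genes past 2-fold. The medians were -0.46 for sterol enzymes, -0.57 for regulators and carriers, -0.35 for fatty acid genes and 0.07 for all loci. Over the 27 genes, 10 were more than 1.5-fold lower, the others being Insig1, Tmem97 and Elovl6, and 0 were more than 1.5-fold higher, where 10.9% of loci were. Srebf1 (0.29) and Fads1 (0.07) were the only genes on the higher side. In the same comparison the 7 genes of the integrated stress response list were all higher, 6 of them more than 1.5-fold, against 10.9% of loci. Their summed level was 299.9 FPKM with GFP and 732 with EICD, against 244 to 287 in the other libraries. Their largest differences were in Trib3 (3.21) and Chac1 (2.90). The epithelial markers summed to 15017 FPKM with GFP and 10856 with EICD, and 5 of 6 were on the lower side, with Krt8 (-1.02) and Krt14 (-0.64) past 1.5-fold. The part of these genes in the lower sterol gene levels was not tested.

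**Figure D4:**
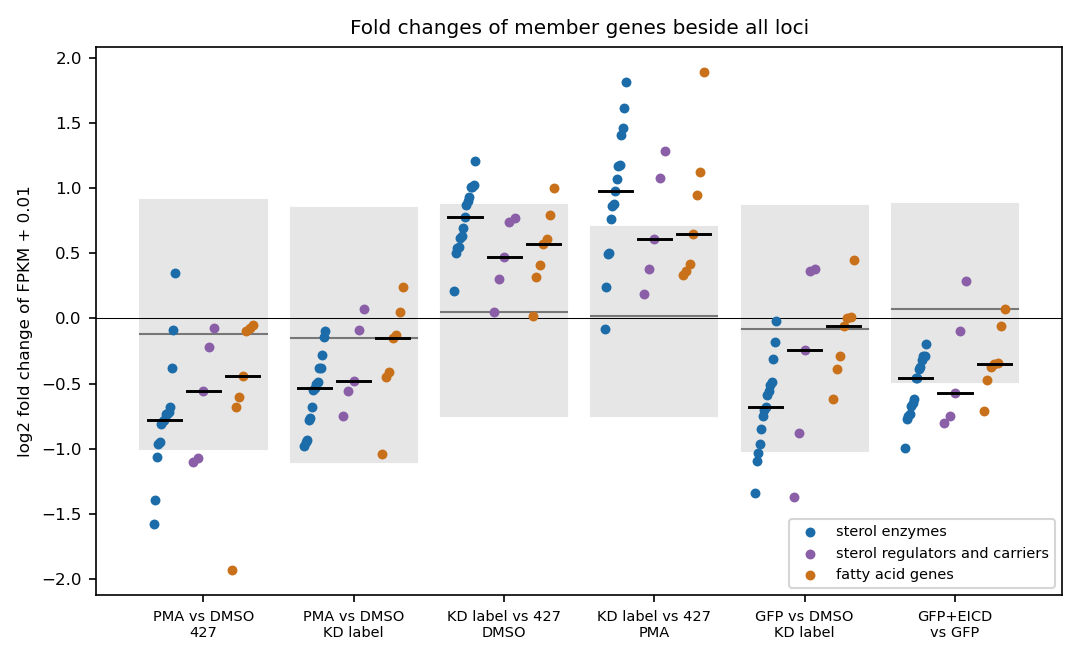
Log2 fold change of the 27 genes (points, coloured by group, 1 per gene) in each of the 6 comparisons, with black bars at group medians. Grey boxes span the 5th to 95th percentile of all loci tested and the grey line is their median. The sterol enzyme median is -0.78 and -0.53 with PMA, 0.78 and 0.98 between the lines, -0.68 with GFP and -0.46 with EICD.

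Genes around these pathways were taken from further lists, whose counts stand against 14.8% of loci more than 1.5-fold lower with PMA in 427 cells and 17.3% in KD-labelled cells, and medians of -0.12 and -0.15. Of 9 genes of SREBP processing and sterol regulation, 7 had a row, and only Mylip, a ubiquitin ligase for lipoprotein receptors, passed 1.5-fold with PMA in 427 cells (-0.98), where the list median was -0.19. None of the 7, which include Scap, Mbtps1 and Mbtps2, the escort and proteases of SREBP activation, passed 1.5-fold with PMA in KD-labelled cells or with EICD, and the median with EICD was 0.19. Of 7 genes of sterol transport, storage and export, 6 passed the level filter, and with PMA 3 were more than 1.5-fold lower in each line, with medians of -0.44 and -0.46. Lpin1, a phosphatidate phosphatase, was at 4.03 and 0.349 FPKM in 427 cells with DMSO and PMA, 9.17 and 2.07 in KD-labelled cells, 3.59 with GFP and 3.53 with EICD. It thus had its lowest and highest values in the same libraries as most sterol enzymes. With EICD the cholesterol exporter Abcg1 was the 1 of those 6 genes past 1.5-fold, from 1.502 to 4.25 FPKM. It was higher, as 10.9% of loci were by more than 1.5-fold, while the sterol enzymes were lower. In the isoprenoid and acetyl-CoA branch, 1 of 7 genes was more than 1.5-fold lower with PMA in each line, Acss2, which makes acetyl-CoA from acetate (-1.60 and -1.35), and the medians were -0.19 and -0.30. Of 13 fatty acid partners, 11 passed the filter and 3 were more than 1.5-fold lower with PMA in each line, among them Acsl3, a fatty acyl-CoA ligase (-0.89 and -1.12), and Mcat, of mitochondrial fatty acid synthesis (-1.05 and -1.06). The medians of this list were -0.15 and -0.18. Hacd2, a dehydratase of fatty acid elongation, was more than 1.5-fold higher with PMA in KD-labelled cells (0.76), as were 8.23% of loci.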

How the data were processed

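Poly(A) RNA of 6 samples was sequenced by the authors as paired-end reads on unstranded TruSeq libraries. The authors aligned reads with TopHat 2.1.1 and computed and normalised FPKM with Cufflinks and Cuffdiff 2.1.1, and deposited FPKM by locus, in 1 table per sample. The submitters' processing notes also list STAR 2.4.0b, without its role, and the build GRCm38. FPKM depends on the assembled gene models and on how reads shared between genes are assigned.

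Groups were taken from the sample labels. Log2 fold changes were formed from FPKM with 0.01 added to both libraries, for loci that reached 1 FPKM in either, in Python 3.11.15 with NumPy 2.4.6 and pandas 2.3.3, with plots by matplotlib 3.10.9. With 1 library per condition no test was run. Counts past 1.5-fold and 2-fold stand beside the share of all loci past the same fold. Every member is named, and values in all 6 libraries are given for members past 1.5-fold in any comparison and for the 3 highest and 3 lowest by mean FPKM. The members and lists were chosen with earlier results of these data known.

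Fragment counts were not analysed here. Depth was estimated from 881 genes with 1 annotated transcript, of over 2500 bases. For each gene the depth at which its FPKM equals 1 fragment was computed, and the most frequent value within a set range was taken. The method was tested on simulated data. By this estimate the counting error of a log2 fold change was at most 0.15 (median 0.03) over 27 genes, which covers counting error only. Promoters came from RefSeq windows and exon overlaps from GENCODE M21. Alternatives were 0.1 or 1 added, no filter, a minimum of 10 FPKM, the sum of all rows of a symbol, and scaling to the same FPKM sum, to the same upper quartile or by the median ratio. Tables of p-values from the study were not used.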

Additional observations from a re-analysis of the deposited data

Results flagged for a closer look

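Several genes had opposite signs in a pair of comparisons that share no library, and in none was the difference tested. Dhcr7 differed by 0.35 on the log2 scale with PMA in 427 cells and by -0.10 in KD-labelled cells. Fasn differed by -0.07 and 0.24, Tmem97 by -0.07 and 0.07, and Acaca by -0.05 and 0.05. Ebp was 0.21 higher in KD-labelled than in 427 cells with DMSO and -0.08 with PMA. Under the upper quartile all 5 genes kept opposite signs, as did Ebp under the median ratio (0.16 and -0.11) and the other 4 with the same FPKM sum. Under the median ratio those 4 had the same sign in both lines, Dhcr7 at 0.45 and 0.02, Fasn at 0.03 and 0.36, Tmem97 at 0.03 and 0.19 and Acaca at 0.04 and 0.17, and with the same FPKM sum Ebp was at 1.18 and 1.17.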

How the results depend on the processing

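Medians of the groups and counts of members past each fold gave 42 results under 8 alternatives. Of the 336 values, 306 stayed within 0.1 on the log2 scale, or within 1.5 times for counts, and 30 moved. Only a median past 1.5-fold as deposited could be called reversed, and none was. The medians that took another sign were those of the fatty acid genes with GFP (0.01 and 0.03). Adding 0.1 or 1 moved nothing. The sum of rows could move nothing, because each symbol had 1 row. Nor could a minimum of 10 FPKM, which all 27 genes reached in at least 1 library of every comparison. The 42 values of each of these settings are among the 306, so they are no check on the results.

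With the same FPKM sum, the medians of sterol enzymes, regulators and fatty acid genes were -1.03, -0.81 and -0.69 with PMA in 427 cells, 1.74, 1.44 and 1.56 between the lines with DMSO, 2.22, 1.86 and 1.90 between them with PMA, and -0.65, -0.76 and -0.53 with EICD. Members more than 2-fold lower then numbered 11 with PMA in 427 cells, 2 with PMA in KD-labelled cells and 1 with EICD, and between the lines 28 were more than 1.5-fold and 27 more than 2-fold higher with DMSO and 27 more than 2-fold higher with PMA. The shifts this scaling applies to every locus were -0.25, 0.03, 0.97, 1.25, 0.03 and -0.18 in the order PMA in 427, PMA in KD-labelled cells, lines with DMSO, lines with PMA, GFP and EICD.

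With the median ratio, the medians with PMA in KD-labelled cells were -0.41, -0.36 and -0.03. By this scaling and by the upper quartile, members past 2-fold numbered 0 with PMA in KD-labelled cells, 1 between the lines with DMSO and 1 with EICD. Without a filter, Scd1 entered, the fatty acid median was -0.28 with PMA in KD-labelled cells and 0.80 between the lines with PMA, and 2 members were more than 2-fold lower with PMA in KD-labelled cells. The scalings of 3 further results were chosen after seeing the data. The median of the PMA difference between the lines was 0.20 over the 27 genes as deposited and 0.50 with the same FPKM sum, and 23 to 26 genes were on the higher side. No paired analysis was possible because each condition has 1 library. Depth limits Scd1 most. Among the 27 genes the counting error was largest for Pmvk with PMA in 427 cells (0.152, for a difference of -0.72). The lack of replicates limits every difference.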

Other observations

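The genes of fatty acid oxidation, which break down what the synthesis genes make, were also lower with PMA. Of 8 on the list, 3 were more than 1.5-fold lower in 427 cells and 4 in KD-labelled cells, against 14.8% and 17.3% of all loci, with medians of -0.44 and -0.59 on the log2 scale against -0.12 and -0.15, and no member above -0.10 in either line. Cpt1a, which admits long-chain fatty acids to mitochondria, was at 36.1 and 15.5 FPKM in 427 cells with DMSO and PMA, 46.1 and 13.4 in KD-labelled cells, 29.3 with GFP and 44.8 with GFP plus EICD. Acadm, the medium-chain acyl-CoA dehydrogenase, differed by -1.21 in 427 cells and -1.39 in KD-labelled cells. With EICD the median was 0.12 beside 0.07 for all loci. All 8 were then on the higher side, by 0.01 or more, where 41.9% of loci were lower. Only Cpt1a of the 8 was past 1.5-fold (0.61), where 10.9% of loci were more than 1.5-fold higher. Between the lines with DMSO 0 of the 8 were more than 1.5-fold higher, where 9.31% of loci were.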
